A study of Homo sapiens with 12 samples.

Results

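The keratins KRT7, KRT8, KRT18, KRT19, KRT80, KRT81 and KRT86 were followed through a GOLM1 knockdown in A549, a human lung adenocarcinoma cell line. The 7 genes, 5 of type II and 2 of type I, were picked by symbol out of the 57773 genes of the deposited count table. All 7 passed the filter on low counts and were among the 17532 genes tested. Cells were reverse transfected with siGOLM1-1, siGOLM1-2 or a non-targeting control siRNA at 50 nM with Lipofectamine RNAiMAX, and RNA was taken after 72 h. Each of the 3 groups had 4 libraries, called biological replicates in the labels, and both siRNAs were set against the same 4 control libraries. Stranded mRNA libraries were sequenced in paired-end mode. All groups share the transfection and the single cell line, and the silenced gene, GOLM1, encodes a Golgi membrane protein.

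Keratins form the intermediate filaments of epithelial cells. A filament is assembled from pairs of a type I and a type II keratin, and a keratin left without a partner is degraded. KRT8 (type II) and KRT18 (type I) are the basic pair of simple epithelia such as the lining of the lung. KRT7 (type II) and KRT19 (type I) accompany them in ductal and airway epithelia, and KRT7 is a common marker of lung adenocarcinoma. KRT80 is a type II keratin of several epithelia. KRT81 and KRT86 are type II keratins of the hair shaft, and KRT81 has also been found in carcinoma cells.

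KRT81 and KRT86 are close copies, so their reads needed a look at the sequence before any value was read. In the GENCODE release 29 transcripts, which were matched by gene ID, the coding sequences of both genes matched at 1361 of 1454 aligned bases, or 93.6%, with an unbroken identical run of 605 bases. Of the 1829 stretches of 101 bases (the read length) in the KRT81 transcript, 536 also stand in KRT86 without a mismatch. The next most similar pair among the 7 genes, KRT7 and KRT8, matched at 72.0% of aligned bases. The stretch below, coding bases 1207 to 1326 of both genes on chromosome 12, 5′ to 3′, is the 120-base window in which they differ most. It is shown because only reads over such bases tell the 2 genes apart, and the 19 differing bases are in capitals.
KRT81: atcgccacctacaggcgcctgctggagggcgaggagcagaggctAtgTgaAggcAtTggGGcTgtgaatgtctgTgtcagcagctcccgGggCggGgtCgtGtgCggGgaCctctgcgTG
KRT86: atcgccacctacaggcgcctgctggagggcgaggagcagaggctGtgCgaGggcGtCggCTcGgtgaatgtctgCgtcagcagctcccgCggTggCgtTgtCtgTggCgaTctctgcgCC

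How the authors' counter treated reads that fit both copies, and its strand setting, are not given in the sources used here. KRT81 lies inside the KRT86 gene on the opposite strand, with 0 exon bases in common. KRT8 and KRT18 are neighbours on opposite strands of chromosome 12, and 525 exon bases of their annotated transcripts overlap. Of the 1462 read-length stretches of KRT18, 241 (16.5%) stand in a KRT8 transcript on the opposite strand, and for KRT8 150 of 2026 stretches stand in another gene's transcript. KRT7 shares 126 of 1654 stretches with its antisense gene KRT7-AS, whereas KRT80 and KRT19 share 0. Besides KRT19, which lies on chromosome 17, the genes are all on chromosome 12. KRT8 and KRT18 have many processed pseudogenes. The counts given to the 50 annotated KRT8 pseudogenes came to 0.327% of the KRT8 counts and those of the 67 KRT18 pseudogenes to 0.0875%. Because the treatment of reads that fit several genes is not known, these shares do not show how far pseudogenes affect the KRT8 and KRT18 counts.

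Library totals ran from 41.6 to 71.3 M counts (M, 1e6), and levels are given in counts per M (CPM). GOLM1 had 37.5 to 38.9 CPM with siGOLM1-1, 44.6 to 53.4 CPM with siGOLM1-2 and 345 to 378 CPM in the control, and was lower in all 8 knockdown libraries. The control libraries stood apart in pairs: across genes, deviations from the group mean correlated at 0.33 between control replicates 1 and 2 and at 0.39 between 3 and 4, but at -0.70 to -0.66 across the pairs. Such deviations are negative in part by construction within a group. The pairs touch the keratins, so the values of all 7 are given below against each pair as well. Mitochondrial transcripts took 3.22% to 4.89% of the counts with siGOLM1-1, 4.87% to 7.27% with siGOLM1-2 and 5.14% to 8.13% in the control. The part of this difference in the results was not tested. The summed level of 6 epithelial markers, which include KRT7, KRT8, KRT18 and KRT19, was 5360 to 5760 CPM with siGOLM1-1, 6440 to 6980 CPM with siGOLM1-2 and 6670 to 9760 CPM in the control. Of the other two, CDH1 averaged 122.8, 122.8 and 115.7 CPM and EPCAM 5.25, 5.37 and 4.26 CPM in the same order of groups. Summed leukocyte markers reached at most 1.18 CPM and endothelial markers 1.99 CPM in any library, and the fibroblast list reached 93.9 CPM, nearly all of it COL1A1.

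**Figure D1:**
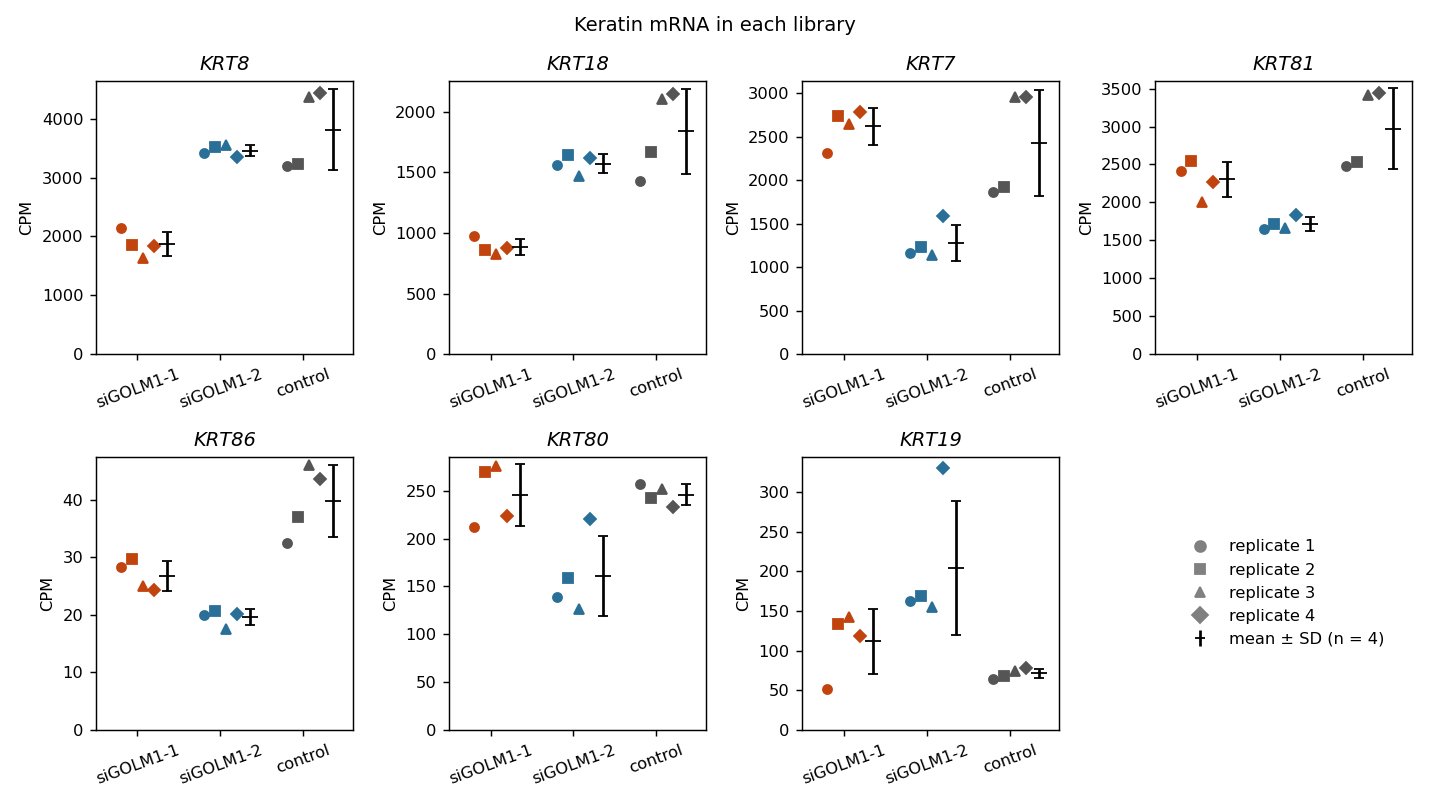
CPM of the 7 keratins in each library (linear axes from 0, marker shape gives the replicate) with mean and SD bars, for siGOLM1-1, siGOLM1-2 and control from left to right, 4 libraries each. KRT8 and KRT18 are low with siGOLM1-1 alone, KRT7 and KRT80 are low with siGOLM1-2 alone, and KRT19 is highest with siGOLM1-2, where replicate 4 reaches 331 CPM.

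The keratins of the KRT8 and KRT18 pair fell with siGOLM1-1 and were not called with siGOLM1-2. KRT8 had 2144, 1858, 1636 and 1842 CPM in the siGOLM1-1 libraries, 3426, 3517, 3556 and 3345 CPM in the siGOLM1-2 libraries and 3204, 3238, 4380 and 4438 CPM in the control libraries. All siGOLM1-1 libraries lay below all others, and the siGOLM1-2 values lay between the lower and the higher control pair. Against the control, KRT8 fell by 1.03 on the log2 scale with siGOLM1-1 (SE 0.12, adjusted p = 1.36e-05). With siGOLM1-2 its log2 fold change was -0.14 (SE 0.12, adjusted p = 0.367). Adjusted p-values are from edgeR's quasi-likelihood test with Benjamini-Hochberg adjustment over all genes tested, with n = 4 libraries per group.

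KRT18, the type I partner of KRT8, had 974, 861, 826 and 875 CPM with siGOLM1-1, 1562, 1642, 1468 and 1617 CPM with siGOLM1-2 and 1431, 1667, 2110 and 2146 CPM in the control. Its siGOLM1-1 libraries again lay below all others, and siGOLM1-2 and control overlapped. The log2 fold change was -1.06 with siGOLM1-1 (SE 0.12, adjusted p = 8.36e-06) and -0.23 with siGOLM1-2 (SE 0.12, adjusted p = 0.134). The siGOLM1-2 value was called without control replicate 1 (-0.33, adjusted p = 0.0183). In siGOLM1-1 against siGOLM1-2 the log2 fold change was -0.89 for KRT8 (SE 0.12, adjusted p = 3.37e-05) and -0.83 for KRT18 (SE 0.12, adjusted p = 4.64e-05), with no overlap of libraries in either gene.

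The ratio of KRT8 to KRT18 stayed in a narrow range while both levels moved. The log2 ratio of their CPM was 1.08 ± 0.07 with siGOLM1-1, 1.14 ± 0.10 with siGOLM1-2 and 1.06 ± 0.08 in the control (SD, n = 4 each). These group means differ by about the spread within a group. Over the 12 libraries the log2 CPM of both genes correlated at 0.99, given as a description, since the libraries share 3 group levels. What the overlap of their exons adds to this value was not tested.

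KRT7 moved with the other siRNA. It had 2313, 2739, 2641 and 2787 CPM with siGOLM1-1, 1157, 1233, 1138 and 1584 CPM with siGOLM1-2 and 1866, 1924, 2958 and 2957 CPM in the control. Every siGOLM1-2 library lay below every other library, and siGOLM1-1 lay inside the range of the control. The log2 fold change was 0.11 with siGOLM1-1 (SE 0.16, adjusted p = 0.596) and -0.92 with siGOLM1-2 (SE 0.16, adjusted p = 0.000429). In the direct comparison KRT7 was 1.04 higher with siGOLM1-1 than with siGOLM1-2 (SE 0.16, adjusted p = 0.000111). The log2 ratio of KRT7 to KRT18 was therefore 1.57 ± 0.21 with siGOLM1-1, -0.31 ± 0.19 with siGOLM1-2 and 0.38 ± 0.13 in the control (SD, n = 4 each), and the ranges of the 3 groups did not overlap.

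KRT80 followed KRT7 in direction. Its libraries had 212, 270, 276 and 224 CPM with siGOLM1-1, 139, 159, 126 and 220 CPM with siGOLM1-2 and 257, 242, 252 and 233 CPM in the control. Of the siGOLM1-2 libraries, replicate 4 came closest to the control without reaching it, and it overlapped siGOLM1-1. KRT80 fell by 0.61 with siGOLM1-2 (SE 0.15, adjusted p = 0.00381). Its log2 fold change with siGOLM1-1 was 0.00 (SE 0.15, adjusted p = 0.986), a value whose sign turned with the scaling. Between the siRNAs it was 0.61 higher with siGOLM1-1 (SE 0.15, adjusted p = 0.003).

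The hair keratins KRT81 and KRT86 were lower with both siRNAs, and further with siGOLM1-2. KRT81 had 2409, 2549, 2006 and 2265 CPM with siGOLM1-1, 1655, 1712, 1656 and 1839 CPM with siGOLM1-2 and 2486, 2528, 3421 and 3448 CPM in the control. The siGOLM1-2 libraries lay below all others, and siGOLM1-1 overlapped the lower control pair. The log2 fold change of KRT81 was -0.36 with siGOLM1-1 (SE 0.12, adjusted p = 0.0227) and -0.79 with siGOLM1-2 (SE 0.12, adjusted p = 0.000139). The siGOLM1-1 call ended when control replicate 3 (-0.29) or 4 (-0.29), or siGOLM1-1 replicate 3 (-0.30) or 4 (-0.35), was left out.

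KRT86 drew far fewer reads than its copy. It had 28.4, 29.7, 25 and 24.3 CPM with siGOLM1-1, 19.9, 20.7, 17.5 and 20.2 CPM with siGOLM1-2 and 32.5, 37.0, 46.1 and 43.7 CPM in the control, and the 3 groups did not overlap. KRT86 fell by 0.57 with siGOLM1-1 (SE 0.11, adjusted p = 0.000798) and by 1.03 with siGOLM1-2 (SE 0.11, adjusted p = 8.61e-06). Between the siRNAs, siGOLM1-1 was higher by 0.43 in KRT81 (SE 0.12, adjusted p = 0.00813) and by 0.46 in KRT86 (SE 0.11, adjusted p = 0.00323). Both genes thus had nearly the same step between the siRNAs, and reads of the far more abundant KRT81 assigned to its copy cannot be told apart from KRT86 transcript. The log2 ratio of KRT81 to KRT86 was 6.43 ± 0.09 with siGOLM1-1, 6.46 ± 0.09 with siGOLM1-2 and 6.22 ± 0.09 in the control (SD, n = 4 each). It ran from 6.33 to 6.54, 6.37 to 6.56 and 6.10 to 6.30 in those groups, so both siRNAs lay above the control. With the counts of both genes summed, the log2 fold changes were -0.37 with siGOLM1-1 and -0.80 with siGOLM1-2.

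KRT19 was the keratin of the 7 that rose. This type I keratin had 51.5, 134, 142 and 119 CPM with siGOLM1-1, 163, 169, 155 and 331 CPM with siGOLM1-2 and 64.5, 68.0, 74.7 and 77.7 CPM in the control. All siGOLM1-2 libraries lay above all others, while siGOLM1-1 had 1 library below the control and 3 above it. KRT19 rose by 1.52 with siGOLM1-2 (SE 0.30, adjusted p = 0.00106), and by 1.18 (adjusted p = 0.00338) without replicate 4. Its log2 fold change with siGOLM1-1 was 0.64 (SE 0.29, adjusted p = 0.0851), and 0.88 (adjusted p = 0.00787) without replicate 1. In siGOLM1-1 against siGOLM1-2 it was at -0.87 (SE 0.29, adjusted p = 0.0215), but without siGOLM1-2 replicate 4 the value was -0.54 (adjusted p = 0.0985).

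With siGOLM1-1, 4 of the 7 keratins were called lower (KRT8, KRT18, KRT81, KRT86), 0 higher and 3 not called. Over all genes tested in that comparison, 47.5% were called, 23.7% higher and 23.8% lower. With siGOLM1-2, 4 keratins were called lower (KRT7, KRT80, KRT81, KRT86), 1 higher (KRT19) and 2 not called, where 45% of all genes were called, 21.8% higher and 23.2% lower. In siGOLM1-1 against siGOLM1-2, 4 were called higher (KRT7, KRT80, KRT81, KRT86) and 3 lower (KRT8, KRT18, KRT19), where 54.4% of all genes were called, 27.9% higher and 26.5% lower. The median log2 fold change of the 7 was -0.36 with siGOLM1-1, -0.61 with siGOLM1-2 and 0.43 between the siRNAs, beside -0.01, -0.009 and 0.015 over all genes tested. Calls were common across the whole table, so the number of keratins called against the control does not set them apart from other genes. With siGOLM1-1 against control, 3 keratins (KRT8, KRT18 and KRT86) had groups with no overlap, beside 41% of all genes. With siGOLM1-2 against control there were 5 such keratins, beside 45.9%, and between the siRNAs 6, beside 48.4%.

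**Figure D2:**
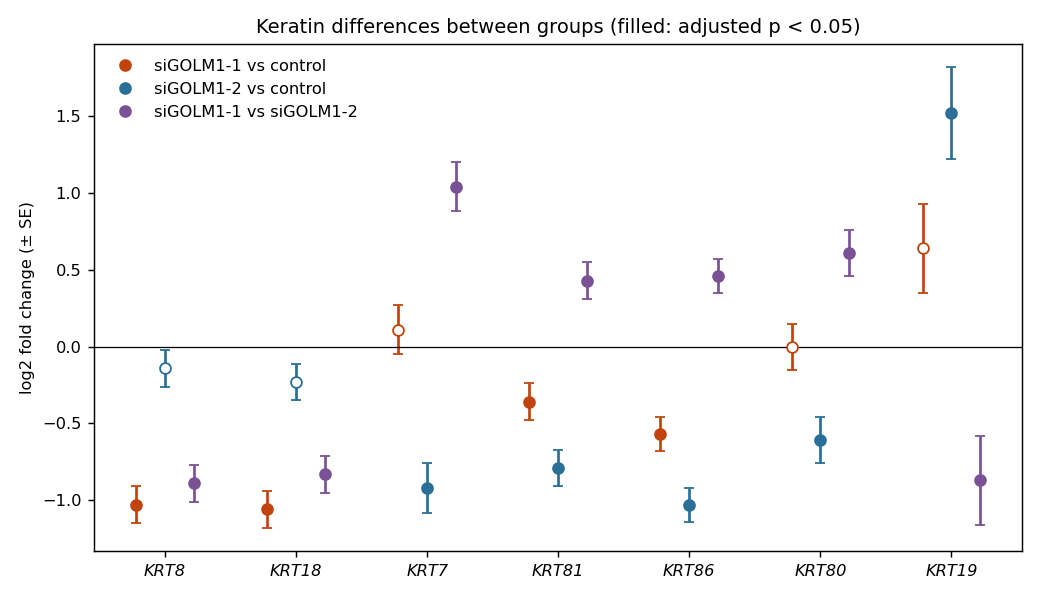
Log2 fold changes of the 7 keratins (filled points called, open points not called, bars are standard errors, edgeR) for siGOLM1-1 against control, siGOLM1-2 against control and siGOLM1-1 against siGOLM1-2. KRT8 (-1.03) and KRT18 (-1.06) are called lower with siGOLM1-1 and open with siGOLM1-2, KRT7 (-0.92) and KRT80 (-0.61) are called lower with siGOLM1-2 and open with siGOLM1-1, and KRT19 lies above 0 with both.

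Scaled by the library totals, the calls over all genes were 4682 higher and 3233 lower with siGOLM1-2, against 3814 and 4071 as reported. Between the siRNAs they were 3564 higher and 5957 lower, against 4887 and 4654, and that scaling put the median over all genes at -0.115. The 4 higher and 3 lower keratins between the siRNAs were also called under that scaling.

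The authors' deposited tables, made with DESeq2, give the same order. In the authors' deposited table for siGOLM1-1 the log2 fold changes were -1.01 for KRT8, -1.04 for KRT18, 0.13 for KRT7, 0.01 for KRT80, -0.35 for KRT81, -0.56 for KRT86 and 0.66 for KRT19. In the authors' deposited table for siGOLM1-2 they were -0.12 for KRT8, -0.21 for KRT18, -0.91 for KRT7, -0.60 for KRT80, -0.77 for KRT81, -1.01 for KRT86 and 1.54 for KRT19. For KRT19 with siGOLM1-1 the authors' deposited table had an adjusted p of 0.105.

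The abundant keratins differed between the control pairs. Control replicates 3 and 4 had a mean of 2957 CPM of KRT7, 1.56-fold that of replicates 1 and 2. The same ratio was 1.37 for KRT8, KRT18 and KRT81, 1.29 for KRT86, 1.15 for KRT19 and 0.972 for KRT80. All of these but KRT80 were thus higher in replicates 3 and 4.

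**Figure D3:**
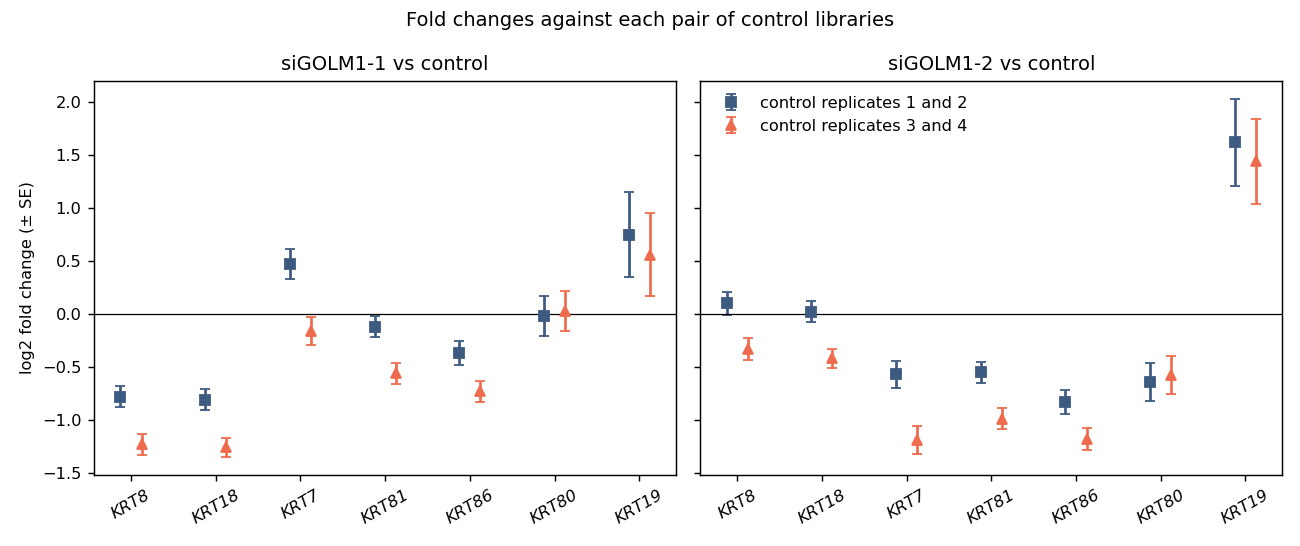
Log2 fold change of each keratin (bars are standard errors) with siGOLM1-1 in one panel and siGOLM1-2 in the other, against control replicates 1 and 2 (squares) or 3 and 4 (triangles). KRT19 and KRT80 move little, while KRT7, KRT8, KRT18, KRT81 and KRT86 are lower against replicates 3 and 4.

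The larger changes were called against either pair. With siGOLM1-1, KRT8 was at -0.78 with control replicates 1 and 2 as the reference and at -1.23 with 3 and 4, KRT18 at -0.81 and -1.26 and KRT86 at -0.37 and -0.73. With siGOLM1-2, KRT7 was at -0.57 and -1.19, KRT81 at -0.55 and -0.99, KRT86 at -0.83 and -1.18, KRT80 at -0.64 and -0.58 and KRT19 at 1.62 and 1.44. The calls of smaller values differed between the pairs. With siGOLM1-1, KRT7 was called higher against replicates 1 and 2 (0.47, adjusted p = 0.0154) and not against 3 and 4 (-0.16, adjusted p = 0.345), and KRT81 was called against 3 and 4 (-0.56) and not against 1 and 2 (-0.12, adjusted p = 0.384). KRT80 (-0.02 and 0.03) and KRT19 (0.75 and 0.56) were called against neither pair with siGOLM1-1. With siGOLM1-2, KRT8 and KRT18 were at 0.10 and 0.02 against replicates 1 and 2 and were called lower against 3 and 4 (-0.33 and -0.42). The comparison of the siRNAs with each other uses no control library.

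Levels of different keratins can be set side by side only per length, and CPM was divided by the transcript length in kilobases for this. In the control, KRT8 was the most abundant at 1790 ± 323 CPM per kb, followed by KRT81 at 1540, KRT7 at 1380 and KRT18 at 1180 (SD, n = 4). The ranges of these neighbours overlapped across libraries, but this order held within every control library. KRT80 at 63.7 and KRT19 at 51.2 CPM per kb came next and did not overlap, and KRT86 was at 18.0.

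With siGOLM1-1 the order was KRT7 at 1490 ± 122 CPM per kb, KRT81 at 1200, KRT8 at 880, KRT18 at 566, KRT19 at 80.3, KRT80 at 63.6 and KRT86 at 12.1. Here the ranges of KRT7 and KRT81 overlapped, as did those of KRT19 and KRT80. Within every siGOLM1-1 library KRT7 exceeded KRT81, whereas KRT19 lay below KRT80 in replicate 1 and above it in the others. With siGOLM1-2 it was KRT8 at 1630 ± 44.5 CPM per kb, KRT18 at 1010, KRT81 at 889, KRT7 at 729, KRT19 at 147, KRT80 at 41.7 and KRT86 at 8.83, where KRT18, KRT81 and KRT7 overlapped in sequence. Within every siGOLM1-2 library, KRT18 exceeded KRT81 and KRT81 exceeded KRT7. KRT7 thus led with siGOLM1-1 and stood below KRT8, KRT18 and KRT81 with siGOLM1-2.

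The balance of the keratin types lay above the control with siGOLM1-1 and below it with siGOLM1-2. The summed type II level was 5.39 to 5.93 times the summed type I level with siGOLM1-1, 2.75 to 3.06 times with siGOLM1-2 and 3.59 to 4.09 times in the control, and the 3 ranges did not overlap. KRT7 made up 30.6% to 37.4% of the summed level with siGOLM1-1, 15.2% to 18.9% with siGOLM1-2 and 21.4% to 24.1% in the control. For KRT8 the shares were 19.1% to 23.4%, 33.0% to 39.2% and 29.4% to 30.7% in the same order. The 7 genes together took 0.720% to 0.801% of all counts with siGOLM1-1, 0.855% to 0.924% with siGOLM1-2 and 0.965% to 1.31% in the control. Fewer cells with a keratin and less keratin RNA per cell cannot be told apart in these bulk libraries.

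**Figure D4:**
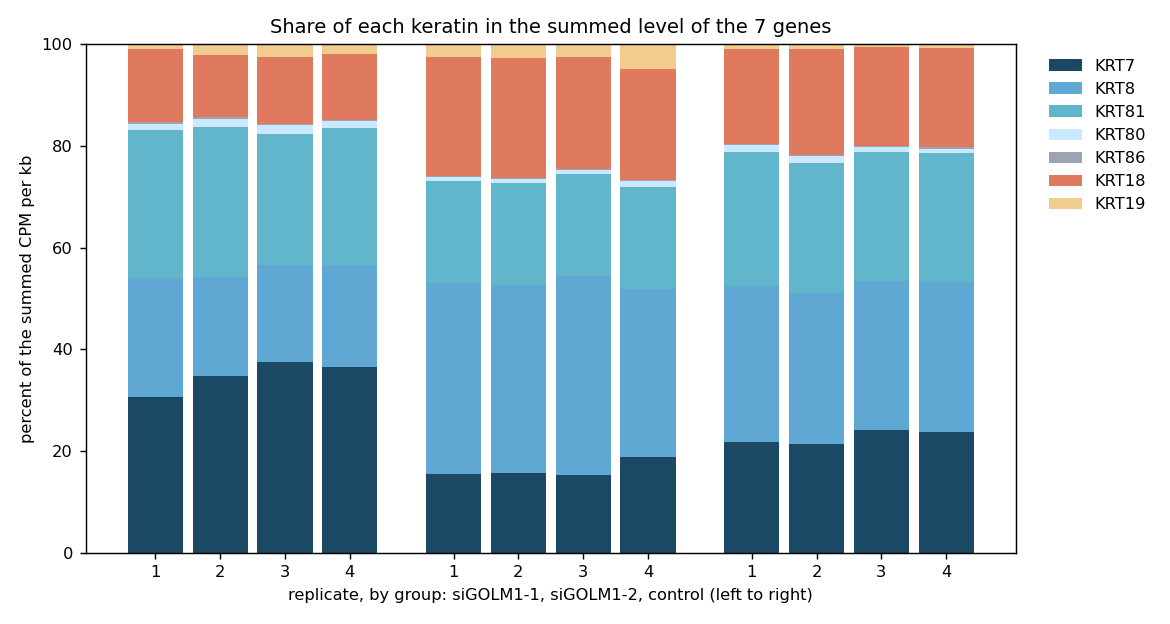
Share of each keratin in the summed CPM per kb of the 7 genes, 1 bar per library, with siGOLM1-1, siGOLM1-2 and control from left to right. KRT7 takes 30.6% to 37.4% with siGOLM1-1 and 15.2% to 18.9% with siGOLM1-2, and KRT18 is widest with siGOLM1-2.

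Among 48 other keratin genes found in the table, 41 had a count in some library, 11 were tested and 6 reached a group mean of 1 CPM. The rest of those tested were KRT2, KRT3, KRT16, KRT20 and KRT222. With siGOLM1-2, KRT2 (7.41), KRT3 (1.93) and KRT16 (2.95) were called higher, and KRT20 and KRT222 were not called. With siGOLM1-1, KRT16 (1.88) and KRT20 (2.28) were called higher and KRT222 (-1.26) lower, and KRT2 and KRT3 were not called. These calls rest on few reads and were not refitted under the alternatives. KRT15, a type I keratin of basal cells, had 0.725, 1.34, 1.90 and 0.868 CPM with siGOLM1-1, 8.38, 8.63, 6.91 and 19.5 CPM with siGOLM1-2 and 0.721, 0.866, 0.741 and 0.362 CPM in the control. It rose by 4.02 with siGOLM1-2 (SE 0.41, adjusted p = 7.13e-06) and was at 0.84 with siGOLM1-1 (adjusted p = 0.12). KRT4, a type II keratin of stratified mucosa, had 2.08, 2.09, 2.05 and 1.42 CPM with siGOLM1-1, 7.81, 6.65, 7.61 and 3.60 CPM with siGOLM1-2 and 2.08, 2.28, 2.58 and 2.13 CPM in the control, a rise of 1.5 with siGOLM1-2 (SE 0.22, adjusted p = 9.54e-05). In the direct comparison both were lower with siGOLM1-1, KRT15 at -3.18 (adjusted p = 1.38e-05) and KRT4 at -1.75 (adjusted p = 1.49e-05).

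KRT83, a further hair keratin, had 4.94, 5.57, 4.6 and 5.65 CPM with siGOLM1-1, 2.40, 2.83, 2.54 and 2.47 CPM with siGOLM1-2 and 3.64, 4.18, 5.17 and 4.51 CPM in the control. It fell by 0.77 with siGOLM1-2 (SE 0.13, adjusted p = 0.000347), as KRT81 and KRT86 did, and was at 0.25 with siGOLM1-1 (adjusted p = 0.132). KRT10, a type I keratin of the upper epidermis, had 43.5 to 65.9 CPM with siGOLM1-1, 37.2 to 48.4 CPM with siGOLM1-2 and 37.6 to 43.8 CPM in the control, and rose by 0.44 with siGOLM1-1 (SE 0.12, adjusted p = 0.00782), a call that ended against control replicates 3 and 4 alone (0.37, adjusted p = 0.0647). KRT34, a type I hair keratin, had 0.27, 0.546, 0.425 and 0.296 CPM with siGOLM1-1, 0.585, 0.711, 0.431 and 3.72 CPM with siGOLM1-2 and 0.16, 0.0481, 0.169 and 0.121 CPM in the control, so all libraries of both siRNAs lay above the control. It rose by 3.40 with siGOLM1-2 (SE 0.73, adjusted p = 0.00205), and by 2.17 without replicate 4. With siGOLM1-1 it was at 1.57 (SE 0.80, adjusted p = 0.123), a value called by DESeq2 (1.62, adjusted p = 0.0328) and in a fit of the 8 libraries compared (adjusted p = 0.00771). Between the siRNAs it was at -1.82 (adjusted p = 0.023), and at -0.59 (adjusted p = 0.144) without siGOLM1-2 replicate 4.

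KRT6A, a type II keratin induced in wounded epidermis, had 0 to 0.0377 CPM with siGOLM1-1, 0.756 to 1.07 CPM with siGOLM1-2 and 0.22, 0.505, 3.37 and 3.54 CPM in the control. It was called lower with siGOLM1-1 (adjusted p = 0.000243), where each library held a few reads at most. With siGOLM1-2 it was at -1.09 (adjusted p = 0.173). Taken against the first control pair it was 1.33 and against the second -1.92, so its direction turned with the pair.

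**Figure D5:**
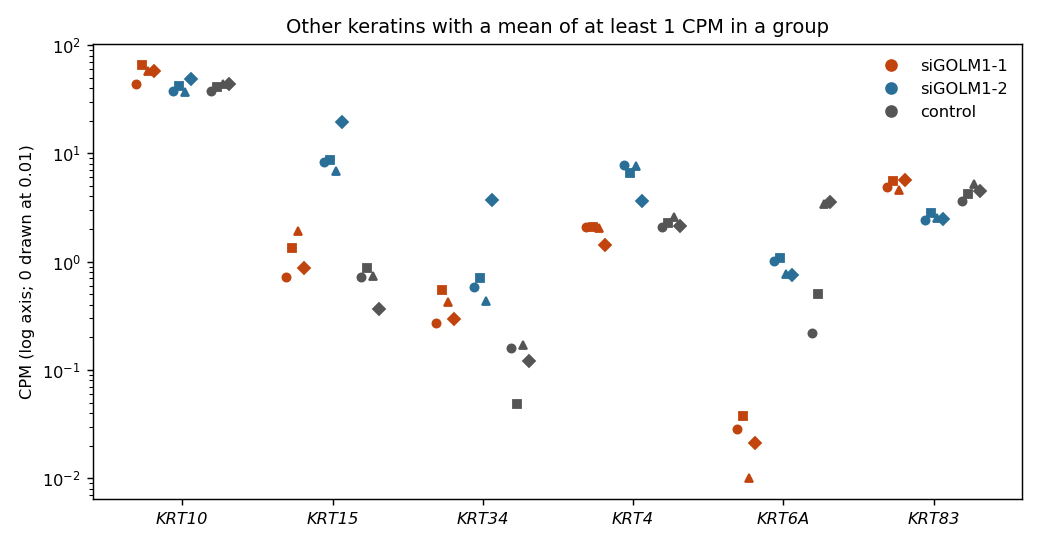
CPM (log axis, 0 drawn at 0.01) of the 6 further keratins that reached a group mean of 1 CPM, in each library of siGOLM1-1, siGOLM1-2 and control from left to right, with the marker shape giving the replicate. KRT15 and KRT4 are high with siGOLM1-2, KRT83 is low there, and KRT6A is split between the control pairs.

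Genes whose products hold or reshape keratin filaments were read from 6 lists, with the same call rule. Desmosomes anchor keratin filaments at cell junctions, and 8 of 14 desmosome genes were tested. With siGOLM1-1, 4 of them were higher, 1 lower and 3 not called (median log2 fold change 0.36), where 47.5% of all genes tested were called, 23.7% higher and 23.8% lower. With siGOLM1-2, 1 was higher, 1 lower and 6 not called (median 0.17), where 45% of all genes were called, 21.8% higher and 23.2% lower. The medians over all genes in these comparisons were -0.01 and -0.009. DSC2, a desmosomal cadherin, had 11.8 to 15.6 CPM with siGOLM1-1, 9.82 to 11.3 CPM with siGOLM1-2 and 2.96 to 4.95 CPM in the control, and rose with both (log2 fold changes 1.70 and 1.40, adjusted p = 1.28e-06 and 9.8e-06). PKP2, the 1 desmosome gene called lower with siGOLM1-1, had 13.2 to 19.8 CPM there and 24, 23.6, 35.5 and 36.7 CPM in the control. PKP2 fell by 0.93 with siGOLM1-1 (SE 0.18, adjusted p = 0.000923) and was at -0.26 with siGOLM1-2 (adjusted p = 0.261). Its control libraries were thus split by pair, and these values were not refitted against each pair. JUP, the plakoglobin that ties cadherins to the plaque, had 837 to 1030 CPM with siGOLM1-1, 384 to 496 CPM with siGOLM1-2 and 522 to 596 CPM in the control. JUP rose by 0.74 with siGOLM1-1 (adjusted p = 3.09e-05) and was at -0.28 with siGOLM1-2 (adjusted p = 0.0273), a call that ended without control replicate 2 (-0.23), control replicate 4 (-0.28) or siGOLM1-2 replicate 4 (-0.21).

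Hemidesmosomes anchor keratin filaments to the basement membrane. Of the 9 plakin and hemidesmosome genes tested, 1 was higher and 1 lower with siGOLM1-1 (median 0.14), and 4 were higher and 1 lower with siGOLM1-2 (median 0.49), beside 47.5% and 45% of all genes called in either direction. The 1 higher gene with siGOLM1-1 was the plakin PPL (0.92, SE 0.32, adjusted p = 0.0284), whose libraries overlapped the control. Its call ended without control replicate 1 (0.73) or 2 (0.73), without siGOLM1-1 replicate 2 (0.94) or 3 (0.69), and against control replicates 3 and 4 alone (0.40). ITGB4, the integrin chain of hemidesmosomes, had 179 to 220 CPM with siGOLM1-1, 310 to 368 CPM with siGOLM1-2 and 157 to 236 CPM in the control, and rose by 0.84 with siGOLM1-2 (SE 0.12, adjusted p = 6.57e-05). Its partner ITGA6 rose by 0.88 (SE 0.10, adjusted p = 1.31e-05) and the hemidesmosomal collagen COL17A1 by 1.70 (SE 0.20, adjusted p = 1.7e-05). With siGOLM1-1 the 3 genes were at 0.05, 0.21 and 0.14, none called, and in the direct comparison all 3 were lower with siGOLM1-1 (-0.79, -0.68 and -1.56, adjusted p of 7e-05 or less). The plakin EVPL fell by 0.62 with siGOLM1-1 (SE 0.14, adjusted p = 0.00199) and by 0.44 with siGOLM1-2 (SE 0.13, adjusted p = 0.0176).

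Of 18 genes for proteins that organise, modify or cleave keratin filaments, 7 were higher and 4 lower with siGOLM1-1 (median 0.03), and 5 were higher and 7 lower with siGOLM1-2 (median -0.07). Over all genes the shares called were 47.5% and 45%. CASP6, a caspase that cleaves KRT18, had 9.46 to 11.2 CPM with siGOLM1-1, 11.1 to 11.5 CPM with siGOLM1-2 and 19.5 to 22.5 CPM in the control. It fell by 0.98 with siGOLM1-1 (adjusted p = 4.67e-07) and by 0.90 with siGOLM1-2 (adjusted p = 1.63e-06). SFN, the 14-3-3 protein sigma of epithelial cells, rose by 0.72 (adjusted p = 1.43e-05) and 0.47 (adjusted p = 0.000631) with siGOLM1-1 and siGOLM1-2. TCHP, trichoplein, which binds KRT8 and KRT18 filaments, fell by 0.60 with siGOLM1-1 (SE 0.08, adjusted p = 2.23e-05) and was at -0.06 with siGOLM1-2 (adjusted p = 0.519). FAM83H, which recruits casein kinase 1 to keratin filaments, rose by 0.56 with siGOLM1-1 and 0.43 with siGOLM1-2. CSNK1A1, that kinase, was lower with siGOLM1-1 than with siGOLM1-2 (-0.58, SE 0.06, adjusted p = 5.1e-06). Against the control, CSNK1A1 was at -0.40 with siGOLM1-1 (adjusted p = 0.000172) and at 0.17 with siGOLM1-2 (adjusted p = 0.0408).

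Among 14 intermediate filament genes other than keratins that were tested, 5 were higher and 3 lower with siGOLM1-1 (median 0.05), and 3 were higher and 3 lower with siGOLM1-2 (median -0.07). These counts lay near the 47.5% and 45% of all genes that were called. SYNM, synemin, had 165 to 181 CPM with siGOLM1-1, 67.2 to 85 CPM with siGOLM1-2 and 73.0 to 101 CPM in the control, and rose by 0.99 with siGOLM1-1 (SE 0.10, adjusted p = 3.63e-06). LMNB1, the nuclear lamin B1, had 36.6 to 53.3 CPM with siGOLM1-1, 51.7 to 71.4 CPM with siGOLM1-2 and 83.0 to 108 CPM in the control. LMNB1 fell by 1.10 with siGOLM1-1 and by 0.57 with siGOLM1-2 (adjusted p = 1.1e-05 and 0.00243).

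Of 11 epithelial transcription factors tested, 6 were higher and 1 lower with siGOLM1-1 (median 0.52), and 4 were higher and 1 lower with siGOLM1-2 (median 0.07), where 23.7% and 21.8% of all genes were called higher. ELF3, an epithelial ETS factor, had 330 to 432 CPM with siGOLM1-1, 85.3 to 126 CPM with siGOLM1-2 and 130 to 157 CPM in the control. ELF3 rose by 1.42 with siGOLM1-1 (SE 0.12, adjusted p = 6.73e-07) and fell by 0.35 with siGOLM1-2 (SE 0.12, adjusted p = 0.0293). EHF, a related ETS factor, was the other way round: it had 23.1 to 43.0 CPM with siGOLM1-1, 130 to 162 CPM with siGOLM1-2 and 41.0 to 63.2 CPM in the control. EHF fell by 0.77 with siGOLM1-1 (adjusted p = 0.0052) and rose by 1.54 with siGOLM1-2 (adjusted p = 3.77e-05). Its siGOLM1-1 and control libraries overlapped, and the control replicates had 41.0, 41.3, 63.2 and 62.6 CPM, split by pair. The falls of EHF with siGOLM1-1 and of ELF3 with siGOLM1-2 were not refitted against each control pair or with libraries left out. GRHL3, a grainyhead factor of epidermal barrier formation, rose by 1.59 with siGOLM1-2 (SE 0.18, adjusted p = 1.02e-05) and was at 0.03 with siGOLM1-1. Other factors went the same way with both siRNAs. KLF4 was called higher with siGOLM1-1 (1.14, adjusted p = 3.55e-05) and with siGOLM1-2 (0.79, adjusted p = 0.000772). KLF5 was also called higher with each (0.52 and 0.48, adjusted p = 6.68e-05 and 0.000152).

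Of 6 cornified envelope genes tested, 2 were higher and 1 lower with siGOLM1-1 (median 0.31), and 4 were higher and 0 lower with siGOLM1-2 (median 1.01), beside 47.5% and 45% of all genes called in either direction. SCEL, sciellin of the envelope, had 0.207 to 0.270 CPM with siGOLM1-1, 2.53 to 4.57 CPM with siGOLM1-2 and 0.770 to 1.19 CPM in the control. It fell by 2.03 with siGOLM1-1 (adjusted p = 2.01e-05) and rose by 1.96 with siGOLM1-2 (adjusted p = 7.13e-06). TGM3 and CNFN did not share this pattern and were called higher with both siRNAs. Their log2 fold changes were 1.86 and 0.72 with siGOLM1-1, and 1.40 and 0.38 with siGOLM1-2. The summed level of 5 markers of basal and squamous cells was 11.5 to 22.2 CPM with siGOLM1-1, 13.7 to 25.5 CPM with siGOLM1-2 and 16.9 to 24.7 CPM in the control, most of it TP63. KRT14 was at 0 in every siGOLM1-1 library, had 0.0597 to 0.176 CPM with siGOLM1-2 and 0 to 0.0212 CPM in the control. KRT17 had 0 to 0.0212 CPM with siGOLM1-1, 0.0398 to 0.186 CPM with siGOLM1-2 and 0 in every control library. Both were thus higher in each siGOLM1-2 library than in each control library, at levels too low to be among the genes tested. Among the genes tested, 45.9% had siGOLM1-2 and control libraries that did not overlap. The rest of the 5 markers did overlap between these groups. With siGOLM1-2 and in the control, KRT5 had 0 to 0.0339 and 0 to 0.0481 CPM, and TP63 12.8 to 24.5 and 13.3 to 24.1 CPM. KRT6A, given above, also overlapped.

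Likeness was measured as the Pearson correlation of log2 CPM over the 12 libraries among 11198 genes of at least 5 CPM. It is given as a description, since the 12 libraries hold only 3 group levels. KRT8 was most like KLC4 (0.987), MYOM3 (0.986) and KRT18 (0.986), and KRT18 most like KRT8, C1orf116 (0.984) and DLST (0.981). KRT7 was most like ACTB (0.992), the cytoplasmic beta-actin, WDR1 (0.987), an actin disassembly factor, and UBL7 (0.982). ACTB averaged 5312 CPM with siGOLM1-1, 2341 CPM with siGOLM1-2 and 4627 CPM in the control. KRT80 was most like COPB1 (0.968) and FHL2 (0.958), KRT81 like LACTB2 (0.979) and KRT121P (0.976), a keratin pseudogene that shares 15 of the 1829 read-length stretches of KRT81, KRT86 like PGAM1 (0.981) and KRT19 like TOLLIP (0.983) and IGFBP6 (0.983).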

How the data were processed

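Per the submitters' processing notes, the authors used bcl2fastq 2.20 and STAR 2.7.3 with the hg19 build, then DESeq2 1.24.0. The counter, annotation and strand setting are not given in the sources used here. Raw gene counts were deposited, and the authors' deposited result tables held log2 fold changes and adjusted p-values, used only where named.

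Genes were kept with filterByExpr and all 12 libraries entered 1 quasi-likelihood fit in edgeR 4.0.16 (R 4.3.3) with TMM scaling, 9 residual degrees of freedom and a common biological coefficient of variation of 0.146. Calls were made at 0.05 after Benjamini-Hochberg adjustment over all genes tested. CPM was computed here from the counts and TMM-scaled library sizes. Per-length levels used the longest principal GENCODE release 29 transcript, which is on another build, so no positions are given. Alternatives were RLE factors, library totals, no filter, at least 1 CPM in at least 4 libraries, DESeq2 1.42.0, the 8 libraries compared alone, the replicate block, each library left out, each control pair alone, KRT81 and KRT86 summed, and pseudogene counts added to their parent gene. The computations were tested on simulated data.

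The keratins, the lists and the rules were chosen with earlier results of these data known. Tested keratins under a group mean of 1 CPM were named in addition to the rule that follows. By rule, GOLM1, keratins reaching a group mean of 1 CPM, in each list and comparison the 3 genes lowest in p, and 3 genes most like each keratin could be named; not all of those were.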

Additional observations from a re-analysis of the deposited data

Results flagged for a closer look

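A library was picked out where its gap to the nearest of its group exceeded Dixon's 95% critical value for 4 samples. Of 63 groups of 4 libraries looked at, 8 had such a library, where chance picks out about 1 in 20, and several of the 8 share a library or a gene.

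In siGOLM1-2 replicate 4, KRT19 was highest at 331 CPM, KRT15 at 19.5 CPM and KRT34 at 3.72 CPM. That library was also highest of its group in the log2 ratio of KRT7 to KRT18 (-0.03) and of KRT19 to KRT18 (-2.29). In siGOLM1-1 replicate 1 the log2 ratio of KRT7 to KRT18 was the lowest of its group at 1.25. In siGOLM1-1 replicate 4, KRT4 was lowest at 1.42 CPM and GOLM1 lowest at 37.5 CPM, in a group that reached only 38.9 CPM.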

How the results depend on the processing

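The 7 keratins and the counts of genes called kept their direction and call under the alternatives except as follows, and KRT10 is given with them. KRT80 with siGOLM1-1, at 0.00, turned sign with RLE factors (0.01), no filter (0.00), DESeq2 (0.01) and control replicates 3 and 4 alone (0.03), and ran from -0.06 to 0.06 with 1 library left out. KRT10 with siGOLM1-2 was at 0.01 with RLE factors and DESeq2, 0.07 with library totals and control replicates 1 and 2 alone, 0.00 with the stricter filter and -0.09 to 0.04 with 1 library left out. KRT81 with siGOLM1-1 was no longer called in the 8 libraries alone (-0.37, adjusted p = 0.05) or against control replicates 1 and 2 (-0.12), and ran from -0.44 to -0.29 with 1 library left out. KRT19 between the siRNAs lost its call with no filter (-0.87, adjusted p = 0.0923) and ran from -1.01 to -0.54 with 1 library left out. KRT19 with siGOLM1-1 was called by DESeq2 (0.66, adjusted p = 0.0399) and ran from 0.51 to 0.88 with 1 library left out.

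Against control replicates 1 and 2 alone, KRT7 with siGOLM1-1 was called at 0.47, and with siGOLM1-2 KRT8 was at 0.10, KRT18 at 0.02 and KRT6A at 1.33. Against replicates 3 and 4 alone, KRT7 with siGOLM1-1 was at -0.16, and with siGOLM1-2 KRT8 (-0.33) and KRT18 (-0.42) were called. KRT18 with siGOLM1-2 ran from -0.33 to -0.15 with 1 library left out. The cause was not tested. Among the other keratins, KRT15 with siGOLM1-1 was called by DESeq2 (0.86, adjusted p = 0.0486), KRT34 with siGOLM1-1 by DESeq2 (1.62) and in the 8 libraries alone (1.57), KRT83 with siGOLM1-1 against control replicates 1 and 2 (0.41, adjusted p = 0.046) and KRT6A with siGOLM1-2 without control replicate 1 (-1.47). KRT34 between the siRNAs lost its call with no filter (-1.81) and with the replicate block (-1.39), and ran from -2.12 to -0.59 with 1 library left out. JUP with siGOLM1-2 also lost its call with library totals (-0.21) and against either control pair.

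Replicate numbers did not pair the libraries throughout: 3 of 12 same-numbered pairs correlated above 0.1, and they ran from -0.2 to 0.35. A pairing was taken to hold only if all 12 were above 0.1, and whether some libraries share a batch was not tested. With the replicate block, 8389 genes were called with siGOLM1-1, 7929 with siGOLM1-2 and 9613 between the siRNAs, and KRT81 with siGOLM1-1 stayed at -0.36 (adjusted p = 0.036). The block changed no call of the 7 keratins. KRT6A and KRT34 rest on few reads, and their folds are limited by depth.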
